A study of Danio rerio with 3 samples.

Results

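Ambient RNA is the RNA that droplets without a cell pick up from the suspension, and it was taken here as the RNA under barcodes with very few molecules in the kidney marrow library. Each molecule counted once by its unique molecular identifier is a UMI. Ambient barcodes were those with 1 to 99 UMIs, and they numbered 518348 of the 672506 barcodes listed for the marrow, of which 149924 had no UMI. They held 3900928 of the library's 9598995 UMIs, or 40.6%. Called cells were the 983 barcodes over a UMI minimum that lay between 1366, the largest total under it, and 1398, the smallest called cell. They also had 250 genes or more and no more than 10% mitochondrial (mt-) UMIs. Together they held 4987653 UMIs, or 52.0%. UMI totals and mt- shares chose these barcodes, so they describe the groups and are not results.

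The study profiled lymphocytes of lck:GFP zebrafish in 3 droplet libraries, 1 each from thymus, kidney marrow and scale. In this line GFP follows lck, a kinase gene of T cells and natural killer (NK) cells. Tissues were pressed into suspensions with a pestle, and fluorescent cells were collected by sorting through gates for lymphoid cells and precursors, GFPlo cells for marrow and scale and GFPhi cells for thymus. All fish carried the lck:GFP genotype, no treatment is given, and the labels give neither age nor the number of fish per library. Both sums therefore come from the same marrow library of GFPlo cells. With 1 library there is no replicate check, no test and no p-value: intervals are 95% intervals that cover counting error only.

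In adult zebrafish the kidney is both a filtering organ and the main site of blood formation, so its marrow holds red cells, granulocytes, macrophages, B cells, T cells and precursors between the tubules. Red cells in fish keep their nucleus and carry very large amounts of haemoglobin mRNA. Granulocytes are rich in lyz, which encodes lysozyme, and in lect2l, a secreted protein gene used as a neutrophil marker. RNA from broken cells can enter any droplet, which is why such barcodes are used as a measure of background in single-cell data.

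The cell type label was checked first. A UMI of trbc1, the constant region of the T cell receptor beta chain (listed as FP236356.1), was seen in 897 of the 983 called cells. The 897 trbc1+ cells held 4187212 UMIs with a median of 4037 per cell, and the other 86 cells held 800441 UMIs with a median of 5039. The trbc1+ cells served as a second set to compare with, because a few called cells without trbc1 carried most of the red cell and granulocyte UMIs of all called cells. Erythroid genes and the granulocyte genes lyz and lect2l were at far lower levels in trbc1+ cells than in ambient RNA, but called cells as a whole did not lack them. The choice of trbc1+ cells left out those few cells, so it bears on the ratios of these genes to trbc1+ cells. At the ambient limit, 117 barcodes had 99 UMIs and were inside, and 107 barcodes had 100 UMIs and were outside. A further 7 barcodes over the minimum were left out, 6 for the mt- share and 1 for its gene number.

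No called-cell barcode of the marrow was shared with the called cells of the other libraries. However, 375 of 391 called-cell barcodes of the scale library and 1359 of 4574 of the thymus library also occurred among the marrow's ambient barcodes. These barcodes held 14267 and 6268 marrow UMIs. Leaving them out moved none of the erythroid, granulocyte, B cell, macrophage and kidney ratios to all called cells beyond its counting interval. None of the ratios of the 131 genes under the naming rule given below changed direction. The ratios of the other lists and those to trbc1+ cells were not recomputed.

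**Figure D1:**
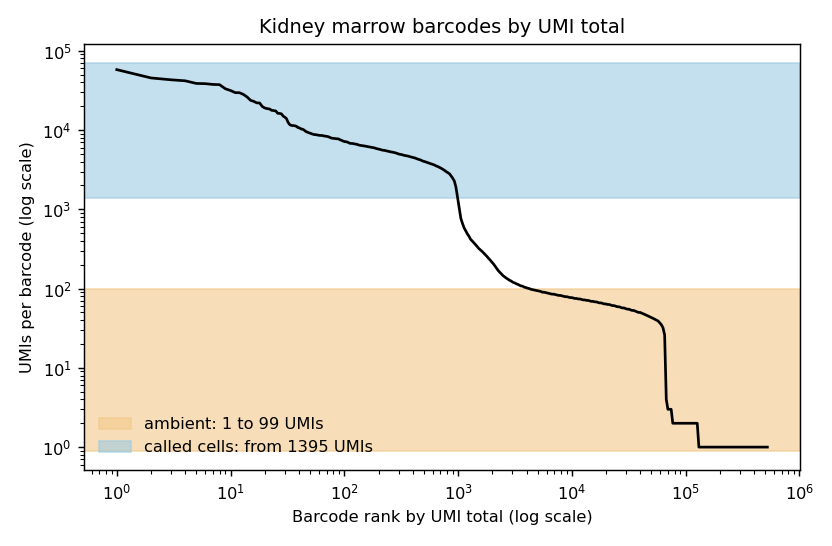
UMIs per barcode of the kidney marrow library (y axis, log scale) against the rank of the barcode by its UMI total (x axis, log scale); barcodes with no UMI are not drawn. The upper band marks totals over the called-cell minimum, and the lower band marks 1 to 99 UMIs, the ambient barcodes. The ambient band holds a shelf of 62271 barcodes with 10 to 99 UMIs and a long tail at 1 UMI.

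Most ambient RNA came from a shelf of similar barcodes. The 62271 barcodes with 10 to 99 UMIs had a median of 52 UMIs and held 3370618 UMIs. The 60061 barcodes with 2 to 9 UMIs held 134294, and the 396016 barcodes with a single UMI held 396016. Ambient barcodes together detected 16557 features and called cells 17616 of the 31903 in the table, with 1551 seen in ambient alone and 2610 in called cells alone.

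Levels are given as UMIs per 1000000 of the summed UMIs of a group (CPM), and a ratio is ambient CPM over called-cell CPM. These 3' tag counts were not divided by transcript length, so levels are compared between groups and not between genes. A feature was called higher or lower where (UMIs + 3) per 1000000 differed at least 2-fold, among the 5109 features with at least 100 UMIs in both sums together. By this rule 33 features were higher in ambient RNA (0.646%) and 550 were lower (10.8%). A feature scarce in either sum passed the UMI minimum only through the other sum. Counts of calls within a list therefore depend in part on the minimum. Against trbc1+ cells, 4595 features had enough UMIs, of which 58 were higher (1.26%) and 498 lower (10.8%). The median feature had a log2 ratio of -0.40 against all called cells and -0.38 against trbc1+ cells. When every ratio was taken relative to that median, 61 features were higher and 159 lower against all called cells, so 27.7% of the calls were on the higher side in place of 5.66%. Spearman's rho over the tested features, which share the library, was 0.883 against all called cells and 0.859 against trbc1+ cells.

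**Figure D2:**
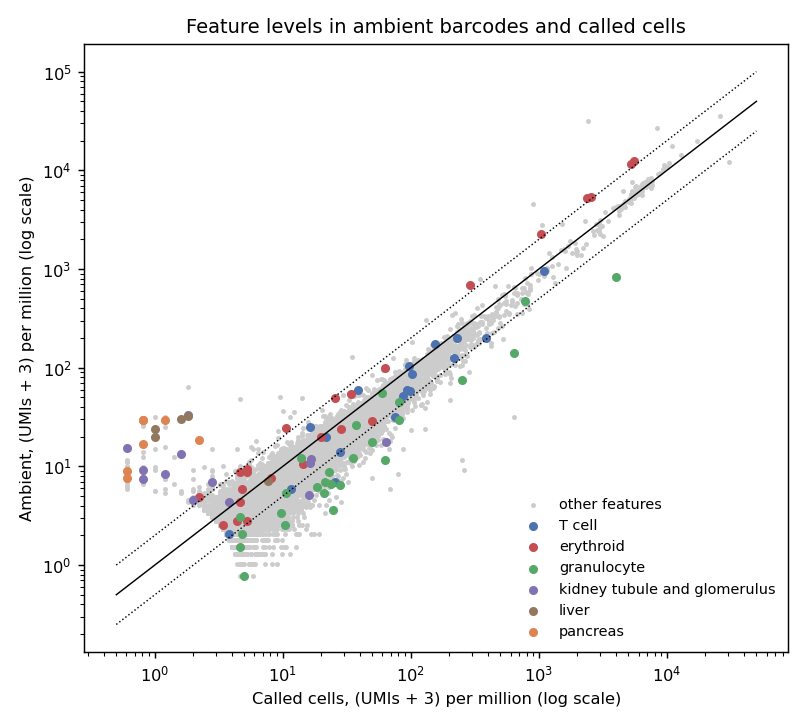
Level of each feature in ambient barcodes (y axis) and in called cells (x axis), as (UMIs + 3) per 1000000, both on log scales; each dot is 1 feature and colours mark 6 of the gene lists. The solid line is equality and the dotted lines are 2-fold. Haemoglobin features lie just above the upper dotted line, lyz and most granulocyte features below the lower one, and pancreas features far to the left, with up to 29.0 CPM in ambient RNA and at most 1.60 CPM in called cells (levels without the added 3 UMIs).

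Erythroid RNA was more abundant in the ambient barcodes than that of any other blood or tissue list. The 33 matched features of the erythroid list made up 37778 CPM of ambient RNA, or 3.78%, against 17347 CPM, or 1.73%, of called cells. The ratio was 2.18 (2.16 to 2.196). Against trbc1+ cells, at 459 CPM, it was 82.3 (78.7 to 86.2). The choice of trbc1+ cells, which left out the called cells rich in haemoglobin, bears on this second ratio. Of 14 list members with enough UMIs, 7 were called higher in ambient RNA and 0 lower, against the background of 0.646% higher. Their median log2 ratio was 1.01, against -0.40 over all tested features.

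The 6 adult haemoglobin features carried nearly all of this. The alpha chain gene hbaa1 had 5312 CPM (5240 to 5385) in ambient RNA, 2549 CPM in called cells and 55.9 CPM in trbc1+ cells. The beta chain name hbba1 is on 2 features. One of them (ENSDARG00000089087) had 11563 CPM in ambient RNA, 5249 CPM in called cells and 130 CPM in trbc1+ cells. The other (ENSDARG00000097238) had 5251 CPM in ambient RNA, 2368 CPM in called cells and 57.6 CPM in trbc1+ cells. The feature with the most UMIs was si:ch211-5k11.8, listed by RefSeq under the synonym hbaa1.2, with 12367 CPM in ambient RNA and 5568 CPM in called cells. Over these 4 features the ratio to all called cells ran between 2.08 and 2.22, and the ratio to trbc1+ cells between 88.2 and 95.05. Features of the same chain may share reads. The split between them was not checked, so the value of each is uncertain.

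Other red cell genes varied in their ratio. The nucleotidase gene nt5c2l1, the other list member called higher, had 23.6 CPM in ambient RNA and 10.0 CPM in called cells, a ratio of 2.35 (1.65 to 3.39). Biliverdin reductase (blvrb) had 49.0 CPM in ambient RNA and 25.1 CPM in called cells, a ratio of 1.95 (1.55 to 2.47). The carbonic anhydrase gene cahz had 99.2 CPM in ambient RNA and 62.8 CPM in called cells, 1.58-fold higher (1.36 to 1.84). Hemogen (hemgn), a nuclear protein gene of erythroid cells, had 52.8 and 33.3 CPM, 1.59-fold higher (1.29 to 1.96). The first haem synthesis enzyme, alas2, had 23.3 CPM in ambient RNA and 28.1 CPM in called cells, and the interval of its ratio, 0.631 to 1.09, holds 1. The anion exchanger slc4a1a was lower in ambient RNA, with 27.9 against 48.7 CPM and a ratio of 0.574 (0.453 to 0.722). The genes cahz, hemgn, alas2 and slc4a1a were near 0 in trbc1+ cells, with at most 8 UMIs each among 4187212.

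Haemoglobin in the called cells sat in very few of them. In 13 cells, 50.6% to 89.7% of the UMIs were haemoglobin, and the next cell had 1.22%. These 13 cells held 97.7% of the haemoglobin UMIs of all called cells, had a median of 7088 UMIs and had no trbc1 UMI. The erythroid ratio against all called cells is thus set by 13 cells. Without the called cells over 5% haemoglobin or over 1% granulocyte UMIs, a choice made after seeing the data, the ratio was 84.7. Cells over 5% haemoglobin were picked on these same UMIs, so a rise of the ratio was set by that choice.

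Counted per barcode, haemoglobin was about as frequent in trbc1+ cells as in ambient barcodes with 10 to 99 UMIs. The 62271 barcodes with 10 to 99 UMIs had a mean of 2.12 haemoglobin UMIs (2.11 to 2.13) and a median of 2. The 897 trbc1+ cells had a mean of 1.95 (1.86 to 2.05) and a median of 1, although their median UMI total was 4037 against 52. The means were close. Their intervals do not overlap, but they cover counting error only and not the spread between barcodes, which reached 46 haemoglobin UMIs in a trbc1+ cell. Whether the means differ beyond that spread was not tested. The remaining 86 called cells had a mean of 969 and a median of 2. In barcodes with 100 to under 500 UMIs the mean was 3.61, so how close the means are depends on the barcodes compared. For trbc1 itself the means were 0.0508 per barcode with 10 to 99 UMIs and 6.12 per trbc1+ cell, which were chosen for having it. The proportions of most haemoglobin features were also close over 6 groups of barcodes, which were the 4 groups from 1 to under 500 UMIs, trbc1+ cells and other called cells. Of haemoglobin UMIs, hbaa1 made up 13.2% to 15.0% and the larger hbba1 feature 30.3% to 31.0%, while hbaa2 varied more, from 1.41% to 2.63%. The barcodes with 502 to 1366 UMIs are not among these groups and had other proportions, given at the end.

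**Figure D3:**
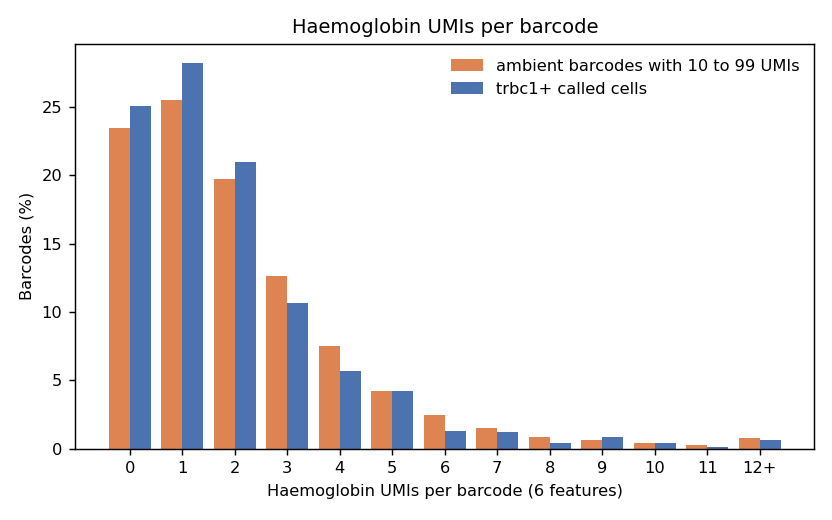
Haemoglobin UMIs per barcode, summed over 6 features (x axis), and the share of barcodes with that number (y axis, percent), for ambient barcodes with 10 to 99 UMIs and for trbc1+ called cells. The bars are drawn from 62271 barcodes and 897 cells. No haemoglobin UMI was seen in 23.5% of these ambient barcodes and in 25.1% of trbc1+ cells.

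Granulocyte RNA showed the opposite order against all called cells. The 30 matched features of the list, which include lysozyme, granule and neutrophil enzyme genes, had 1780 CPM in ambient RNA, 6305 CPM in called cells and 674 CPM in trbc1+ cells. The ambient level was 0.282 (0.275 to 0.290) of that in all called cells, or 3.54-fold lower, and 2.64-fold (2.53 to 2.76) that in trbc1+ cells. Of 19 members with enough UMIs, 0 were called higher and 14 lower, with a median log2 ratio of -1.60, against a background of 10.8% lower. Some of those called lower passed the minimum on called-cell UMIs alone, such as adam8a with 11 UMIs in ambient RNA and 119 in called cells. The minimum thus bears on the 14. Against trbc1+ cells, 6 of 8 were called higher and 0 lower, against a background of 1.26% higher and 10.8% lower. Here lyz, lect2l and npsn passed the minimum on ambient UMIs alone, and members such as cebpa, with 66 ambient UMIs and 1 in trbc1+ cells, fell under it. The minimum and the choice of trbc1+ cells thus bear on this count.

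The gene lyz had 837 CPM (809 to 867) in ambient RNA and 4018 CPM (3962 to 4074) in called cells, a ratio of 0.208 (0.201 to 0.216). Only 46 called cells had a lyz UMI, and a single cell held 30.2% of them. In trbc1+ cells lyz was at 10.3 CPM, 81.6-fold (60.4 to 113) lower than in ambient RNA. The secreted protein gene lect2l had 141 CPM in ambient RNA, 638 CPM in called cells and 1.67 CPM in trbc1+ cells. Its ratio was 0.221 (0.202 to 0.242) to called cells and 84.3 (40.7 to 211) to trbc1+ cells. The metalloproteinase gene npsn had 74.6 CPM in ambient RNA, 251 CPM in called cells and 2.39 CPM in trbc1+ cells. Myeloperoxidase (mpx), the peroxidase of neutrophil granules, had 42 UMIs in ambient RNA, 308 in called cells and 0 in trbc1+ cells. Like haemoglobin, these genes had far lower CPM in trbc1+ cells than in ambient RNA, which the choice of trbc1+ cells bears on. Unlike haemoglobin, they were lower in ambient RNA than in called cells as a whole.

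Here too a handful of cells carried the list. In 14 called cells, 1.302% to 53.9% of the UMIs fell on the granulocyte list without srgn, and the next cell had 0.843%. They held 97.3% of these UMIs and had no trbc1 UMI. Without the called cells over 5% haemoglobin or 1% granulocyte UMIs, the granulocyte ratio was 2.48, and its direction turned. Cells over 1% were picked on UMIs of this same list, so a rise of the ratio was set by that choice. Some members differed from lyz and lect2l. For the proteoglycan gene srgn, 832 called cells had a UMI, and trbc1+ cells had 574 CPM against 469 CPM in ambient RNA. The gene nccrp1 had a UMI in 184 called cells, with 44.6 CPM in ambient RNA and 44.9 CPM in trbc1+ cells. The gene s100a10b had 55.1 CPM in ambient RNA, 58.9 CPM in called cells and 0.955 CPM in trbc1+ cells. The interval of its ratio to called cells, 0.781 to 1.12, holds 1. Per barcode, lyz had a mean of 0.0375 (0.0360 to 0.0391) in barcodes with 10 to 99 UMIs and 0.0479 (0.0347 to 0.0646) in trbc1+ cells, so the intervals overlap. The list without srgn had 0.0608 per such barcode and 0.466 per trbc1+ cell. Of its 418 UMIs in trbc1+ cells, 188 were of nccrp1.

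B cell RNA was scarce in ambient barcodes. The 64 matched features, 41 of which had no UMI in either sum, had 166 CPM in ambient RNA, 1388 CPM in called cells and 458 CPM in trbc1+ cells. The ratio to all called cells was 0.120 (0.110 to 0.130). Of 5 members with enough UMIs, 0 were called higher and 3 lower, against 0.646% and 10.8% over all features. Among those called lower, igl3v5 and igic1s1 passed the minimum only through called cells, so the minimum bears on this count. The heavy chain gene ighm had 30.8 CPM in ambient RNA and 639 CPM in called cells, but 1 called cell held 69.6% of its UMIs and a second 29.0%. The second cell had a single trbc1 UMI and so counts as trbc1+. The light chain features igl3v5 and igic1s1 had 33 and 42 UMIs in ambient RNA, against 1303 and 1238 UMIs in called cells, where 1 cell held 99.3% and 94.9% of them. Without the called cell with most B cell UMIs, the ratio of the list was 0.376. The kinase gene syk was spread more widely, with a UMI in 308 called cells, 105 CPM in ambient RNA and 198 CPM in called cells. Most of the ambient level of the list, 105 of 166 CPM, was thus syk.

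Macrophage RNA gave no single direction. The 27 matched features had 262 CPM in ambient RNA, 297 CPM in called cells and 165 CPM in trbc1+ cells, with ratios of 0.881 (0.813 to 0.955) and 1.59 (1.44 to 1.75). Without the called cell with most UMIs of the list, the first ratio was 1.07, so its side of 1 rests on that cell. Of 6 members with enough UMIs, 1 was called higher and 2 lower, against 0.646% and 10.8% over all features. The one called higher was the granulin gene grn1, with 34.6 CPM in ambient RNA and 11.6 CPM in called cells, where 1 cell held 84.5% of its UMIs. It passed the minimum on ambient UMIs alone, so the minimum bears on these counts. The paralogue grn2 had 20 UMIs in ambient RNA and 0 in called cells, at least 8.52-fold higher with the floor of 3 UMIs. With called cells taken from 500 UMIs, the ratio of grn2, on UMIs + 3, was 0.831, so its absence holds for the larger barcodes only. Of the 20 ambient UMIs, 1 was in barcodes with 10 to 99 UMIs and 19 in barcodes with 1 to 9. Apolipoprotein gene apoc1 had 55 UMIs in ambient RNA and 2 in called cells, a ratio of 35.2 (9.28 to 298). The lysosomal protease gene lgmn had 14.9 CPM in ambient RNA and 5.01 CPM in called cells, a ratio of 2.97 (1.83 to 4.95). The myeloid transcription factor gene spi1b went the other way, with 24.9 CPM in ambient RNA, 46.5 CPM in called cells and 2.39 CPM in trbc1+ cells. The cathepsin gene ctss2.1 had 61.8, 79.8 and 81.2 CPM in the same 3 groups, and 288 called cells had a UMI of it. Under the UMI minimum, mpeg1.1 was also lower in ambient RNA, with 12 UMIs there and 32 in called cells, a ratio of 0.479 (0.225 to 0.956). So was mfap4, with 3 and 24 UMIs, all 24 in 1 cell. For marco, with 4 and 11 UMIs, the interval of the ratio, 0.108 to 1.57, holds 1.

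The kidney list was mixed: some epithelial genes were seen in ambient RNA, at low levels, and hardly or not at all in called cells, while others were lower in ambient RNA. Of 44 matched features, 31 had a UMI in ambient RNA and 19 in called cells, and 13 were in ambient RNA alone. The list had 175 CPM in ambient RNA, 126 CPM in called cells and 35.3 CPM in trbc1+ cells, with ratios of 1.39 (1.25 to 1.56) and 4.95 (4.14 to 5.95). Of 4 members with enough UMIs, 1 was called higher and 1 lower, against 0.646% and 10.8% over all features, with a median log2 ratio of -0.54 against -0.40. The one called higher passed the minimum on ambient UMIs alone and the one called lower on called-cell UMIs alone. The minimum thus bears on both calls. One called cell held 56.1% of the called-cell UMIs of the list. Most of that share was si:dkey-203a12.8, a Kazal-type protease inhibitor gene now named spink2.5, with 66 UMIs in ambient RNA and 317 UMIs in called cells, all in that cell. Without the called cell with most list UMIs, the kidney ratio was 3.17. The transcription factor gene gata3, which T cells also express, had 39 UMIs in ambient RNA and 78 in called cells. The cilium gene odf3b had 17 UMIs in ambient RNA and 77 in called cells, and zgc:158852 had 43 and 80.

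Cadherin gene cdh17, a marker of the pronephric tubule in zebrafish, had 57 UMIs or 14.6 CPM (11.1 to 18.9) in ambient RNA and 0 among called cells, at least 24.3-fold higher with 0 set at the floor of 3 UMIs. The sodium pump subunit gene atp1a1a.4 had 12.6 CPM in ambient RNA and 1.00 CPM in called cells, 12.5-fold higher (5.02 to 40.3). Transporter genes slc13a3, for dicarboxylates, and slc12a3, for sodium and chloride in the distal tubule, had 18 and 16 UMIs in ambient RNA and 0 in called cells. Outside the list, stc1l had 100 UMIs in ambient RNA and 1 in called cells. It is a gene of stanniocalcin, a hormone of the corpuscles of Stannius, which lie in the kidney of fish. The sodium pump regulator si:ch211-139a5.9, now named fxyd2, had 119 UMIs in ambient RNA and 2 in called cells.

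**Figure D4:**
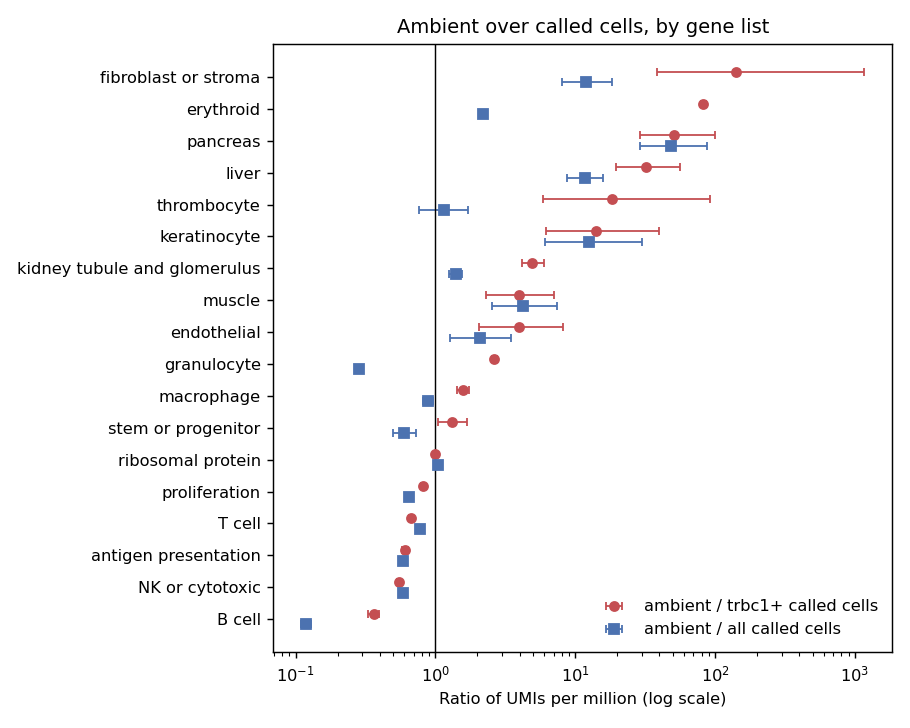
Ratio of summed UMIs per 1000000 in ambient barcodes over called cells (x axis, log scale) for 18 gene lists, against trbc1+ called cells (circles) and against all called cells (squares), with 95% intervals for counting error. The vertical line marks equal levels. The erythroid list lies at 82.3 against trbc1+ cells and 2.18 against all called cells, and the granulocyte list at 2.64 and 0.282, on opposite sides of the line. The pancreas list lies at 50.9 and 48.5.

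Genes of tissues outside the marrow were also present. The 13 pancreas features, most of them genes of digestive enzymes and 1 the insulin gene ins with a single ambient UMI, had 569 UMIs or 146 CPM in ambient RNA, against 15 UMIs or 3.01 CPM in called cells, a ratio of 48.5 (29.2 to 87.2). All 3 members with enough UMIs were called higher, against 0.646% over all features. With 15 called-cell UMIs in the whole list, a member could pass the minimum only through ambient RNA. The count of 3 was therefore set by the minimum. Trypsin gene prss1 had 113 UMIs in ambient RNA and 3 in called cells, and prss59.2 had 113 and 1. Chymotrypsinogen gene ctrb1 had 112 UMIs in ambient RNA and 1 in called cells. The elastase genes ela3l and ela2 had 32 and 27 UMIs in ambient RNA and 0 in called cells. Of the 19 lists, the pancreas list had the highest ratio to all called cells.

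Liver plasma protein genes had 122 CPM in ambient RNA and 10.4 CPM in called cells over 14 features, a ratio of 11.7 (8.78 to 15.9). Both members with enough UMIs, apoa1b and apoa2, were called higher, against the same background. Each passed the minimum on its ambient UMIs alone, so this count too was set by the minimum. One feature listed as hp, whose current symbol is msmbl, had 25 UMIs in ambient RNA and held 35 of the 52 called-cell UMIs of this list. Apolipoprotein gene apoa1b had 123 UMIs in ambient RNA and 6 in called cells, and apoa2 had 114 and 5. Transferrin (tfa) had 91 UMIs in ambient RNA and 2 in called cells, and the fatty acid binding protein gene fabp10a had 75 and 2. The 10 fibroblast or stroma features had 67.2 CPM in ambient RNA, 5.61 CPM in called cells and 0.478 CPM in trbc1+ cells. Most of it was cxcl12a, the chemokine that holds blood precursors in the marrow niche, with 47.9 CPM in ambient RNA and 4.01 CPM in called cells, where 1 cell held 80.0% of its UMIs. Collagen genes col1a1a and col1a2 had 24 and 21 UMIs in ambient RNA and 0 in called cells. Keratinocyte genes had 20.3 CPM in ambient RNA and 1.60 CPM in called cells, and muscle genes had 16.9 and 4.01 CPM.

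In all, 20 of the 31903 features had at least 20 UMIs in ambient RNA and 0 in called cells. At any number of UMIs, 1551 were seen in ambient RNA alone and 2610 in called cells alone. The reverse count at 20 UMIs is not given. The largest of the 20 were cdh17 with 57, the parvalbumin gene pvalb9 with 42 and the alanine aminotransferase gene gpt2l with 40. Next came zgc:112160, now named ctrb.3, with 36, and the myoglobin gene mb with 35. At 0 among 4987653 UMIs, the floor of 3 UMIs allows called cells up to 0.601 CPM of each.

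T cell genes were present in ambient RNA at about the ratio of the median tested feature, which was 0.756. The 19 T cell features had 2153 CPM in ambient RNA, 2776 CPM in called cells and 3225 CPM in trbc1+ cells, a ratio to called cells of 0.776 (0.755 to 0.797). Of 16 with enough UMIs, 0 were called higher and 2 lower, close to the background of 10.8% lower, and their median log2 ratio was -0.45. Members differed among themselves: the co-receptor gene cd28 had 58.4 CPM in ambient RNA and 37.9 CPM in called cells, a ratio of 1.54 (1.27 to 1.88), and the kinase genes zap70 and itk had ratios of 1.11 and 1.08. Against trbc1+ cells the T cell ratio was 0.668 (0.650 to 0.686). Those cells were chosen for trbc1, a member of the list, whose ratio was 0.863 to all called cells and 0.724 to trbc1+ cells. The ratio of lck, which was not used in the choice, was also lower against trbc1+ cells, at 0.544 in place of 0.632. The receptor gene trbc1 had 950 CPM in ambient RNA and 1101 CPM in called cells. The sorting gene lck had 58.2 CPM in ambient RNA and 92.0 CPM in called cells, a ratio of 0.632 (0.537 to 0.743). The gfp feature had 79.0 CPM in ambient RNA and 76.0 CPM in called cells, and the interval of its ratio, 0.891 to 1.21, holds 1. The recombinase gene rag1 had 20 UMIs in ambient RNA and 7 in called cells, all 7 in 1 cell, and 0 in trbc1+ cells.

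The 17 NK or cytotoxic features had 1523 CPM in ambient RNA and 2610 CPM in called cells, a ratio of 0.584 (0.566 to 0.602). Of 12 with enough UMIs, 4 were called lower and 0 higher, against 10.8% and 0.646% over all features. The NK-lysin gene nkl.1 had 249 CPM in ambient RNA and 479 CPM in called cells, and the cytokine receptor gene il2rb had 116 and 263 CPM. The granzyme gene gzmk was closer, with 283 CPM in ambient RNA and 313 CPM in called cells. Antigen presentation genes, led by the invariant chain gene cd74a, had 684 CPM in ambient RNA and 1157 CPM in called cells. Cell cycle genes of the proliferation list had 1326 and 2051 CPM, and 20 called cells held 69.4% of the called-cell UMIs of that list. The 84 ribosomal protein features made up 45.9% of ambient RNA and 44.1% of called cells, a ratio of 1.04, with 0 of 82 tested members called in either direction.

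The features with the largest ratios were few and of several kinds. Of the 33 called higher, 17 were in a list: 7 erythroid, 3 pancreas, 2 liver, 2 mitochondrial and 1 each of macrophage, kidney and stroma. Among the 10 largest were prss59.2, ctrb1, RF01290, krt94, stc1l, si:ch211-139a5.9, RF00067, prss1 and apoa2. RF01290 and RF00067 are named for RNA families, and RF00067 is now SNORD15, a small nucleolar RNA. They had 245 and 119 UMIs in ambient RNA, against 6 and 3 in called cells. The keratin gene krt94 had 103 UMIs in ambient RNA and 1 in called cells.

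Among abundant features, zgc:158463 had the largest difference and was named after its values were seen. It had 31578 CPM in ambient RNA and 2427 CPM in called cells, 13.01-fold higher (12.8 to 13.3), and 2552 CPM in trbc1+ cells. RefSeq types this feature as ribosomal RNA. Its mean was 1.92 UMIs in barcodes with 10 to 99 UMIs and 11.9 in trbc1+ cells, so unlike that of haemoglobin its mean was higher in trbc1+ cells. The feature NC_002333.4, named for the mitochondrial genome record, had 26881 CPM in ambient RNA and 8319 CPM in called cells, 3.23-fold higher. The mt- features together had a ratio of 1.45, which the limit on mt- share of called cells bears on.

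The 10 lowest ratios were taken among features with a UMI in at least 5% of called cells. Some, such as batf with 18 UMIs in ambient RNA and 109 in called cells, passed the UMI minimum through called cells alone. Both filters thus bear on which genes are listed. The immediate early gene fosb had 7.69 CPM in ambient RNA and 78.2 CPM in called cells, 10.2-fold lower. The integrin gene itgae.2 had 14.1 CPM in ambient RNA and 66.4 CPM in called cells. The transcription factor genes batf and foxp1b had 4.61 and 10.3 CPM in ambient RNA, against 21.9 and 41.9 CPM in called cells. The co-stimulatory receptor gene tnfrsf9a had 9.48 CPM in ambient RNA and 38.5 CPM in called cells. The other 5 were thrap3a, si:dkey-206d17.12, si:dkeyp-13d12.23, si:dkey-23a13.22 and ciartb. The long nuclear RNA malat1, listed as CR383676.1 and named after its values were seen, had 12048 CPM in ambient RNA and 30647 CPM in called cells, a ratio of 0.393 (0.389 to 0.397).

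Ambient barcodes did not all hold the same mixture. Haemoglobin had 26703 CPM in barcodes with 1 UMI, 26159 CPM at 2 to 9 UMIs and 39127 CPM at 10 to 99 UMIs. The gene lyz ran the other way, with 1740, 1795 and 693 CPM in these groups. Pancreas genes had 60.6, 96.8 and 158 CPM, and liver genes 58.1, 29.8 and 133 CPM, with wide intervals at 2 to 9 UMIs, where liver genes had 4 UMIs. The rRNA feature zgc:158463 had 7325, 6352 and 35432 CPM. T cell genes were level, at 2237, 2286 and 2138 CPM. The mt- features had 44372, 48208 and 20667 CPM in the same order. Barcodes with 1 to 9 UMIs therefore held more granulocyte and mt- RNA, and less haemoglobin and rRNA, than those with 10 to 99.

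**Figure D5:**
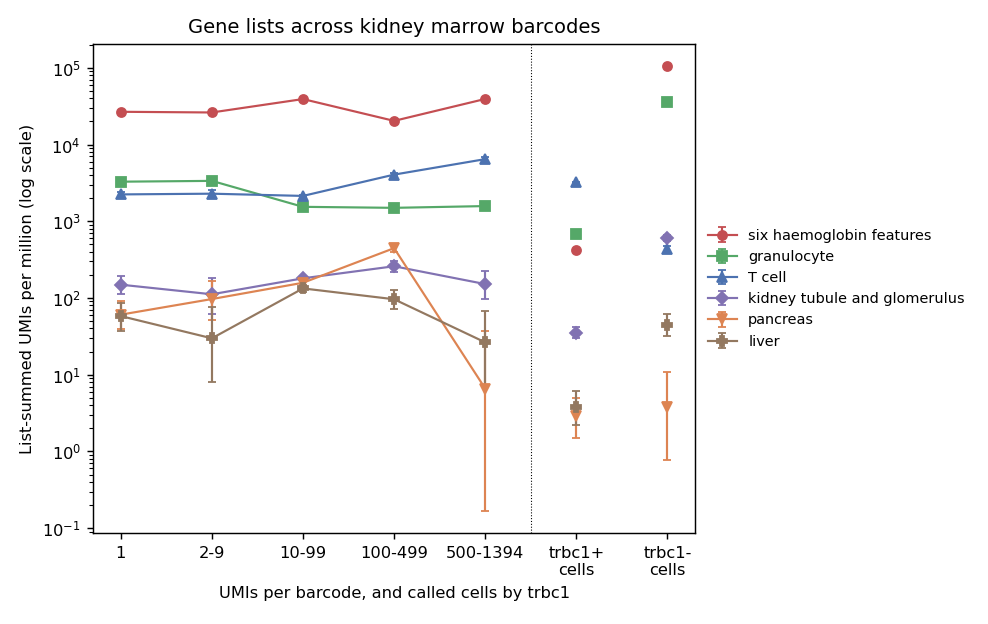
Summed UMIs per 1000000 (y axis, log scale) of 6 lists in marrow barcodes grouped by UMI total (x axis), with trbc1+ and trbc1- called cells to the right of the dotted line; bars are 95% intervals for counting error. Haemoglobin has 20324 CPM or more in every group under the called-cell minimum and 418 CPM in trbc1+ cells. The pancreas list peaks at 446 CPM in barcodes with 100 to under 500 UMIs.

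The other libraries gave no ambient barcodes to compare, since their lists began at 500 UMIs for thymus and 501 UMIs for scale. Called cells from 500 UMIs there had haemoglobin at 536 CPM in thymus and at 2.22 CPM in scale. In the marrow it was at 17060 CPM in all called cells and at 418 CPM in trbc1+ cells. The scale value rests on 3 UMIs, which is the floor used here, with an interval of 0.458 to 6.49 CPM.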

How the data were processed

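The authors deposited 1 matrix per tissue, with UMI counts for each feature and barcode that were not normalized. Per the submitters' processing notes, Cell Ranger 6.0.0, Seurat 4.3.0 and build GRCz11 were used. Per the file headers, cellranger 6.0.0 wrote the thymus and scale matrices and Cell Ranger 4 the marrow matrix. The filters and annotation are not given in the sources used here, and no coordinates or sequences are printed. Of 31903 features, 29177 matched a current symbol.

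UMIs were summed over barcodes with Python 3.11.15, numpy 2.4.6, pandas 2.3.3 and scipy 1.17.1. Levels have exact Poisson 95% intervals, ratios exact conditional binomial ones, and shares exact Clopper-Pearson ones. All cover counting error only. Fold calls and log2 ratios used UMIs + 3, and a count of 0 was set at a floor of 3 UMIs. The depth per group, given with the results, limits the precision. The scripts were tested on simulated data. Doublets were neither called nor removed.

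The rule for named genes was as follows. It took the 10 highest and, among features in at least 5% of called cells, the 10 lowest ratios. It added the 6 members of each list with most ambient UMIs, members with at least 20 ambient UMIs and 0 in called cells, and lck, gfp, rag1, lyz, lect2l and the haemoglobin genes. Other list members named were chosen after their values were seen. The 19 lists and the members were chosen with earlier results of these data known. Alternatives changed the ambient limits, the called cells and the UMI minimum per feature. A gene that the rule selects is not reported here.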

Additional observations from a re-analysis of the deposited data

Results flagged for a closer look

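Marrow barcodes between the ambient barcodes and the called cells belong to neither of the summed groups, and many gene lists in them lay above called cells, with counting intervals that do not overlap. In the 3039 barcodes with 100 to under 500 UMIs, pancreas genes had 446 CPM (391 to 506), against 3.01 CPM in called cells. Those 241 UMIs were in 35 barcodes, a single barcode held 159 of them, and the top 10 held 89.6%. Other tissue lists were also higher there: kidney had 259 against 126 CPM, liver 96.2 against 10.4 CPM, stroma 75.9 against 5.61 CPM, keratinocyte 72.2 against 1.60 CPM and muscle 14.8 against 4.01 CPM. Of blood lists, erythroid had 20656 against 17347 CPM, its 6 haemoglobin features 20324 against 17060 CPM, macrophage 385 against 297 CPM and T cell 4052 against 2776 CPM. The mt- features had 124642 against 16551 CPM, but only called cells were limited to 10% mt- UMIs, so that limit bears on this difference.

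In the 205 barcodes with 502 to 1366 UMIs, the 6 haemoglobin features had 39258 CPM, against 17060 CPM in called cells, and the erythroid list 40274 against 17347 CPM. There, 12 barcodes over 5% haemoglobin held 93.3% of the haemoglobin UMIs, and the other barcodes had a median of 2. The macrophage list had 1049 CPM (892 to 1225) against 297 CPM, and the T cell list 6451 CPM (6053 to 6868) against 2776 CPM. NK or cytotoxic genes had 3430 against 2610 CPM, antigen presentation genes 1477 against 1157 CPM, stem or progenitor genes 139 against 70.6 CPM, and thrombocyte genes 52.8 against 11.4 CPM on 8 UMIs. The mt- features had 105849 against 16551 CPM, where again only called cells had the mt- limit. Ribosomal protein features had 151195 against 440650 CPM. The part of the mt- and ribosomal shares in the other levels was not tested.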

How the results depend on the processing

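With 1 library per group, no replicate could be left out. No paired analysis was possible because there is 1 library per tissue and no test. Against the reported ratio of 2.18, the erythroid list had 1.55 in ambient barcodes with 1 to 9 UMIs, 2.28 with 10 to 99 UMIs, 2.11 with called cells from 500 UMIs, 82.3 against trbc1+ cells, 3.46 with each called cell weighing the same and 2.58 without its top cell. Without the cells high in haemoglobin or granulocyte UMIs, chosen after seeing the data and on UMIs of these same lists, it had 84.7. In the order 1 to 9 UMIs, 10 to 99 UMIs, trbc1+ cells, equal weights and no top cell, the granulocyte list (0.282) had 0.523, 0.244, 2.64, 0.689 and 0.366, and 2.48 without the high cells. In that order the B cell list (0.120) had 0.206, 0.106, 0.363, 0.226 and 0.376. The macrophage list (0.881) had 1.43, 0.794, 1.59, 1.13 and 1.07, and 1.03 without the high cells. The kidney list (1.39) had 1.11 at 1 to 9 UMIs, 1.18 with no mt- limit, 4.95 against trbc1+ cells, 1.74 with equal weights, 3.17 without its top cell and 3.32 without the high cells. The granulocyte list against trbc1+ cells and without the high cells, and the macrophage list in 5 settings, changed direction. For the granulocyte list the choice of cells bears on both changes. Of features called, 33 higher and 550 lower became 51 and 332 at 1 to 9 UMIs, 133 and 1629 at 20 UMIs per feature, 13 and 86 at 500, 946 and 2325 with no minimum, and 61 and 159 relative to the median feature, a scaling added after seeing the data. Against trbc1+ cells 58 were higher, and with equal weights 51. Other settings kept every such count within 1.5-fold.

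Of 131 genes under the naming rule, 38 ratios over 10 settings changed direction, all on UMIs + 3. At 1 to 9 UMIs these were gata3 1.05, rplp2l 0.962, ctss2.1 1.03, rps29 0.924, zap70 0.877, srgn 1.03, blnk 1.15, lmo2 1.55, RPL41 0.929, myb 1.13, nfe2 1.28, hmgb2b 1.104, rpl37 0.9998, gzmk 1.09, cd74b 1.05 and mt-co1 1.56. Against trbc1+ cells they were spi1b 8.26, npsn 24.3, rpl23 0.991, zap70 0.954, si:dkey-203a12.8 24.7, lect2l 59.4, nfe2 1.34, hmgb2b 1.05, lyz 76.3, igic1s1 1.38 and igl3v5 7.73. With equal weights they were spi1b 1.04, hmgb2a 1.301, rrm2 2.38, tubb2b 1.72, stmn1a 1.99, myb 1.05, hmgb2b 1.98 and pcna 1.34. With called cells from 500 UMIs grn2 had 0.831. Without the cell with most UMIs of the gene, si:dkey-203a12.8 had 29.4 and igl3v5 3.82. For some of these genes the share that few cells hold is given above. Of the genes that changed with equal weights, rrm2 had at least 50% of its called-cell UMIs in 4 cells. For spi1b that number was 7 cells, for tubb2b 10 and for hmgb2a 14. Beyond that the cause was not tested.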

Other observations

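The 375 ambient marrow barcodes that were also called-cell barcodes of the scale library did not look like the rest of the ambient barcodes. Their marrow UMIs came to 1.18% of their UMIs in the scale library, with a median of 1.17% and a range of 0.175% to 3.16%. Of their 14267 marrow UMIs, 99.2% were on features also seen in the scale cell with the same barcode. That share was not computed for scale cells with another barcode, so how far 99.2% lies above it is not known. The feature FP236331.1 had 1612 CPM in the 375 shared barcodes, 2762 CPM in the scale cells and 8.76 CPM in the other ambient barcodes. The chemokine gene ccl20a.3 had 1822 CPM in them, 1689 CPM in the scale cells and 12.9 CPM in the other ambient barcodes. Haemoglobin had 1332 CPM in them, 2.47 CPM in the scale cells, on at most 3 UMIs, and 37554 CPM in the other ambient barcodes. Of the scale library's called cells, 95.9% (93.4% to 97.6%) had such a barcode in the marrow list, against 29.7% (28.4% to 31.1%) of the thymus library's, whose shared barcodes had a median of 1 marrow UMI against 37 for scale. The cause was not tested.

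The haemoglobin features stood in other proportions in barcodes with 502 to 1366 UMIs than in the 6 other groups. There hbba2 made up 0.756% and hbaa2 0.151% of haemoglobin UMIs, against ranges of 5.71% to 6.28% and 1.41% to 2.63% in the others. The larger hbba1 feature made up 41.2% there, against 30.3% to 31.0%.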
